A study of Mus musculus with 6 samples.

Results

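Csf2, Il3, Il4, Il5, Il13 and Rad50 are 6 genes of the cytokine cluster on mouse chromosome 11, taken by symbol from a table of 33300 features. 4 of the 6 (Csf2, Il4, Il13 and Rad50) had a mean of at least 1 FPKM (fragments per kilobase of feature and per 1000000 assigned reads) and were tested among 11378 genes, while Il3 and Il5 lay below that level and are given by their values. Polyadenylated RNA was sequenced from naive CD4 T cells of age-matched female mice after 5 days of culture on plate-bound antibodies to CD3 and CD28, under conditions that drive the Th17 state. The medium was the same for all mice and held antibodies to IL-4 and to interferon-γ at 10 µg/mL each, TGF-β1 at 1 ng/mL, IL-23 at 10 ng/mL, IL-6 at 50 ng/mL and IL-1β at 10 ng/mL. The groups were 3 Control mice, whose genotype is labelled WT, and 3 SLE1.2.3 mice. SLE1.2.3 commonly denotes a lupus-prone congenic genotype that combines the Sle1, Sle2 and Sle3 intervals, none of which is on chromosome 11. The labels give 1 mouse per library, and neither the age in weeks nor the background strain.

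The cluster is known for cytokine genes that helper T cells, mast cells and basophils switch on after activation. Il4, Il13 and Il5 encode the type 2 cytokines, which act on B cells, epithelium and eosinophils, and the Rad50 gene among them carries in its introns the locus control region of Il4 and Il13. Csf2 encodes GM-CSF, which acts on myeloid cells and which Th17 cells make in response to IL-23 and IL-1. Il3 encodes a growth factor for mast cells and basophils, and the RAD50 protein is a subunit of a complex that holds and processes broken DNA ends.

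On the mm10 assembly the genes lie in the order Il4 (ENSMUSG00000000869.12, chr11:53602982-53618669, minus strand), Il13 (ENSMUSG00000020383.1, chr11:53631324-53634702, minus), Rad50 (ENSMUSG00000020380.16, chr11:53649519-53707319, minus), Il5 (ENSMUSG00000036117.2, chr11:53720794-53725106, plus), Csf2 (ENSMUSG00000018916.5, chr11:54247271-54249667, minus) and Il3 (ENSMUSG00000018914.5, chr11:54265303-54267277, minus). Gaps of 12.6, 14.8 and 13.5 kb separate the first 4, while 522 kb lie between Il5 and Csf2 and 15.6 kb between Csf2 and Il3. Exons of the antisense gene Gm12223 overlap those of Csf2, and exons of the antisense gene Gm12214 overlap those of Il5, in the GENCODE M21 annotation. Whether the counting used strand is not given in the sources used here, so reads of such partners cannot be told apart. Gm12223 was at most 0.092 FPKM in any library, and Gm12214 was not analysed here.

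The windows around the starts of Il13, Il5, Il4 and Csf2 are shown because Il13, Il5 and Csf2 had all SLE1.2.3 values above all Control values, while Il4, next to Il13, did not. They are RefSeq sequences on GRCm38.p6, the assembly behind mm10, read 5′ to 3′ on the strand of the gene from 250 bases before the RefSeq start to 50 after it. Their positions are chr11:53634653-53634952 (Il13, minus), chr11:53720544-53720843 (Il5, plus), chr11:53618616-53618915 (Il4, minus) and chr11:54249850-54250149 (Csf2, minus). Capitals mark matches on either strand to any of 5 motifs. They are TGANTCA for AP-1, GGAAA for the core that NFAT factors bind, TATAAA for the box of that name, GATAA for the family of zinc finger factors that includes Gata3, and TTCNNNGAA for STAT factors.
Il13: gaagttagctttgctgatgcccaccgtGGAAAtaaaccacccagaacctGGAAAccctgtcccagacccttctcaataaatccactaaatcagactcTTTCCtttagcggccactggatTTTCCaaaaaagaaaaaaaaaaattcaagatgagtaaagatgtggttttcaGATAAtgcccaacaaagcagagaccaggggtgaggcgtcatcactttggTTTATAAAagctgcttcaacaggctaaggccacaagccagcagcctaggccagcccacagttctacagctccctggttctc
Il5: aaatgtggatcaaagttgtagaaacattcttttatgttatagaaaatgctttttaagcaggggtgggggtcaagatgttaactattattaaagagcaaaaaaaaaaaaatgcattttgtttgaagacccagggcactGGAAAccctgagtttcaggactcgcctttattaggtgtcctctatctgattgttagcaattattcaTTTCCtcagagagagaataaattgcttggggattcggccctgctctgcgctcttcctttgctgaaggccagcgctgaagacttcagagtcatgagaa
Il4: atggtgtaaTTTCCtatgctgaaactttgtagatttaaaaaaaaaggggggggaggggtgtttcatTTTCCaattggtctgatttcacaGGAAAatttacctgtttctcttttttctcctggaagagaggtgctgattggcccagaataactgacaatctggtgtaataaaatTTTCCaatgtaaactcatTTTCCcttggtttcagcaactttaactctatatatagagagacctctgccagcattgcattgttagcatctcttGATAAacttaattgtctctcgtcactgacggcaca
Csf2: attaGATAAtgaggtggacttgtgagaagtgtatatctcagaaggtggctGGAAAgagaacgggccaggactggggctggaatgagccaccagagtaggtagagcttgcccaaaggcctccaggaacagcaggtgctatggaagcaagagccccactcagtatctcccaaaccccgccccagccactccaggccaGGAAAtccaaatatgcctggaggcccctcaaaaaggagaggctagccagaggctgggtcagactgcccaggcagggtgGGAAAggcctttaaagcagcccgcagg
GGAAA had 4 matches in the Il13 window, 2 in the Il5 window, 5 in the Il4 window and 3 in the Csf2 window, and 61.3% of all 32851 promoter windows hold it. TATAAA was present in the Il13 window alone of these 4, on both strands in overlapping matches that begin at -31 and -29 from the start, against 13.6% of all windows. GATAA was present once each in the Il13, Il4 and Csf2 windows, against 25.4% of all windows. TGANTCA and TTCNNNGAA, held by 7.81% and 8.30% of all windows, were not among the letters of these 4, and no match to 1 of the 5 motifs overlapped a match to another. A further RefSeq window of Il4, not shown, lies at chr11:53617289-53617588 and holds TTCNNNGAA once, at -4 from its start, overlapping its single GGAAA match. The RefSeq start of Csf2 lies 232 bases upstream of the deposited start, so its window does not hold the bases next to the deposited start. RefSeq windows were matched for 5 of the 6 genes.

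Il13 showed the largest difference of the 4 tested genes. Its level was 0.742, 1.052 and 1.033 FPKM in Control mice 1, 2 and 3, and 18.5, 11.3 and 25.1 FPKM in SLE1.2.3 mice 1, 2 and 3. The groups did not overlap, and the lowest SLE1.2.3 value, in mouse 2, was far above the highest Control value. Il13 rose from 0.942 ± 0.174 to 18.3 ± 6.88 FPKM (SD, n = 3 each), which is 19.4-fold. On the log2(FPKM + 1) scale, which understates changes of low genes, the difference was 3.25 ± 0.26 (SE; 95% interval 2.61 to 3.89; limma, Benjamini-Hochberg adjusted p = 0.0027). The Control mean was under 1 FPKM, so Il13 entered the test through its SLE1.2.3 level. The reads behind these levels, worked out from the smallest steps between FPKM values, numbered 45, 72 and 37 in Control mice 1, 2 and 3 and 1857, 841 and 2269 in SLE1.2.3 mice 1, 2 and 3.

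Csf2 had 3.85, 3.96 and 4.46 FPKM in Control mice 1, 2 and 3, and 17.7, 31.5 and 23.9 FPKM in SLE1.2.3 mice 1, 2 and 3. The groups did not overlap, the Control mice lay close together, and among the SLE1.2.3 mice mouse 2 was highest and mouse 1 lowest. Csf2 rose 5.96-fold, from 4.09 ± 0.323 to 24.4 ± 6.89 FPKM (SD, n = 3 each), or by 2.28 ± 0.19 on the log2(FPKM + 1) scale (SE; 95% interval 1.81 to 2.75; limma adjusted p = 0.0033). By size of the difference Il13 stood at rank 37 and Csf2 at rank 100 of all tested genes. Of all tested genes 9.65% were called higher and 5.58% lower, 15.2% in all, and the values of the groups did not overlap in 41.5%, in 23.9% with SLE1.2.3 higher and in 17.7% with SLE1.2.3 lower. These shares cover tested genes only and were not worked out for features below the filter.

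Il4, the neighbour of Il13 and the cytokine whose protein the medium neutralised, did not pass. It had 2.56, 1.78 and 1.62 FPKM in Control mice 1, 2 and 3, and 2.69, 1.22 and 1.052 FPKM in SLE1.2.3 mice 1, 2 and 3. The groups overlapped, since SLE1.2.3 mouse 1 had the highest value of all 6 mice and SLE1.2.3 mice 2 and 3 the lowest. The difference was -0.21 on the log2(FPKM + 1) scale, with a 95% interval of -0.81 to 0.39 (limma adjusted p = 0.58), which leaves room for a moderate change in either direction. The Il4 feature pools 4 annotated transcripts, and their separate levels were not analysed here.

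Rad50 had 14.9, 15.4 and 15.5 FPKM in Control mice 1, 2 and 3, and 12.4, 14.3 and 18.4 FPKM in SLE1.2.3 mice 1, 2 and 3. The Control values lay within the range of the SLE1.2.3 values, which were spread more widely. The difference was -0.04 on the log2(FPKM + 1) scale (95% interval -0.37 to 0.28; limma adjusted p = 0.85). Rad50 and Il4, on either side of Il13, thus both went without a call.

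**Figure D1:**
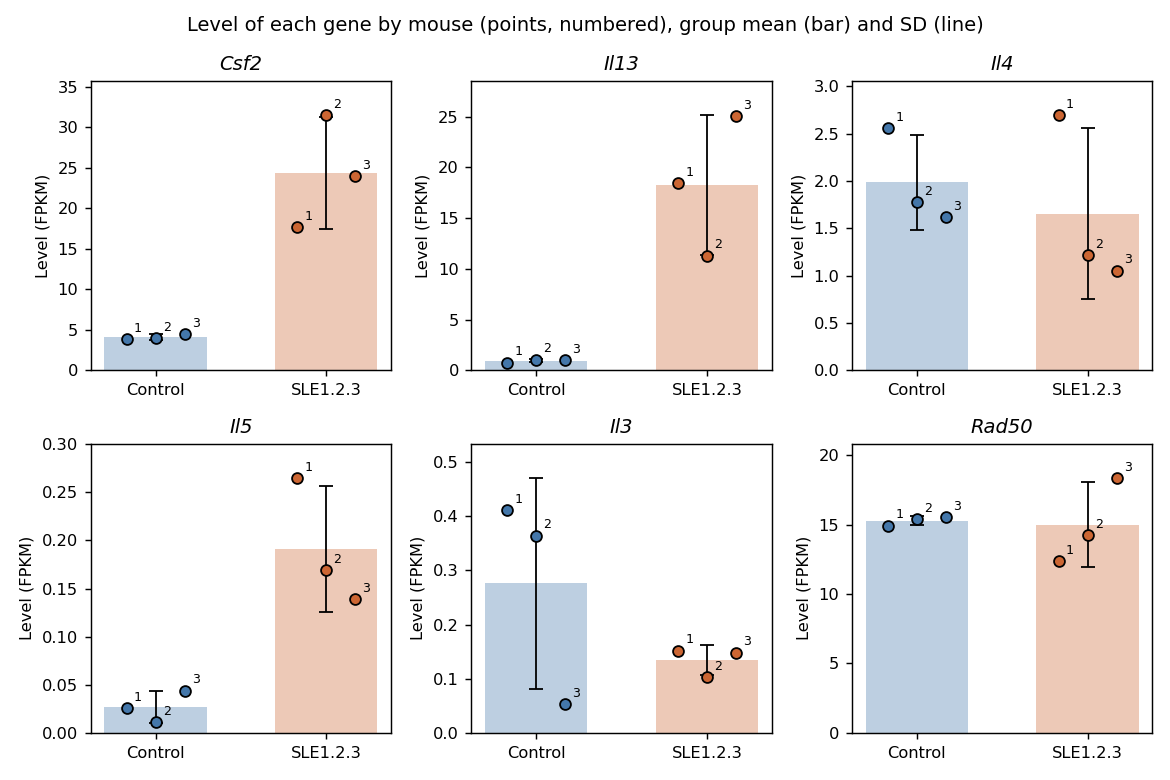
Level of each of the 6 genes in FPKM (vertical axes) in the 3 Control and the 3 SLE1.2.3 mice, with a point for each mouse and marks for the group mean and SD. Csf2, Il13 and Il5 have all SLE1.2.3 points above all Control points, and the points of Il4, Il3 and Rad50 overlap between the groups.

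Il5 was at the limit of detection in Control cells. It had 2, 1 and 2 reads (0.026, 0.011 and 0.044 FPKM) in Control mice 1, 2 and 3, and 34, 16 and 16 reads (0.265, 0.169 and 0.139 FPKM) in SLE1.2.3 mice 1, 2 and 3. The groups did not overlap, and no Control library reached 3 reads, a level worth 0.0344 to 0.0656 FPKM of Il5 in the Control libraries and 0.0234 to 0.0316 FPKM in the SLE1.2.3 libraries. Summed over libraries the rate of Il5 reads was 8.20 times as high in SLE1.2.3 cells, with an exact 95% interval of 3.34 to 26.1 that covers counting error only. In a fit of all 30034 features with any reads, Il5 missed the threshold on the log2(FPKM + 1) scale (limma adjusted p = 0.066). It passed with limma voom on the recovered reads of those features (log2 difference 2.61 ± 0.61 SE; adjusted p = 0.044), an analysis added after the values were known.

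Il3, the close neighbour of Csf2, had 13, 13 and 1 reads (0.411, 0.364 and 0.053 FPKM) in Control mice 1, 2 and 3, and 8, 4 and 7 reads (0.152, 0.103 and 0.148 FPKM) in SLE1.2.3 mice 1, 2 and 3. The groups overlapped, with Control mice 1 and 2 highest and Control mouse 3, the shallowest library, lowest. The rate of Il3 reads in SLE1.2.3 cells was 0.437 times that in Control cells, with an exact 95% interval of 0.230 to 0.816 for counting error alone, which the spread between Control mice exceeds. Over all 30034 features the difference did not pass on the log2(FPKM + 1) scale (-0.16; limma adjusted p = 0.53) or with limma voom on the reads (-0.86 ± 0.68 SE; adjusted p = 0.52).

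FPKM is per length, so levels can be ordered across genes. In Control cells the mean level was 15.3 FPKM for Rad50, 4.09 for Csf2, 1.98 for Il4, 0.942 for Il13, 0.276 for Il3 and 0.027 for Il5, and the values of neighbours in this order did not overlap. In SLE1.2.3 cells the order was Csf2 at 24.4 FPKM, Il13 at 18.3, Rad50 at 15.0, Il4 at 1.65, Il5 at 0.191 and Il3 at 0.134. There the values of Csf2, Il13 and Rad50 overlapped, and so did those of Il5 and Il3, while Il4 stood apart on both sides.

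Within the same library, the level of Il13 was 0.290, 0.591 and 0.639 times that of Il4 in Control mice 1, 2 and 3, and 6.85, 9.31 and 23.8 times in SLE1.2.3 mice 1, 2 and 3. Il13 was thus the lower of the pair in every Control library and the higher in every SLE1.2.3 library. The sum of the 5 cytokine genes was 7.59, 7.17 and 7.2 FPKM in Control mice 1, 2 and 3, and 39.3, 44.3 and 50.3 FPKM in SLE1.2.3 mice 1, 2 and 3. Csf2 made up 50.7% to 61.9% of that sum in Control cells and 45.1% to 71.1% in SLE1.2.3 cells. Il13 made up 9.78% to 14.7% and 25.6% to 49.8%, and Il4 22.4% to 33.7% and 2.09% to 6.86%. Shares of a sum move against one another and were not tested. SLE1.2.3 mouse 2 had the highest Csf2 and the lowest Il13 of its group, with Il13 at 0.360 times Csf2 against 1.043 and 1.048 times in mice 1 and 3.

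The libraries held 29.7 to 83.5 times 1000000 assigned reads, and those of SLE1.2.3 mice were on average 1.61 times as deep. A principal component with 78.4% of the variance, the first, placed SLE1.2.3 mouse 1 between the Control mice and SLE1.2.3 mice 2 and 3. Cd3e, Cd4 and Il17a, markers of T cells and of the Th17 state, were present in every library, with Cd4 at 246 to 264 FPKM in Control mice and at 257, 144 and 71.6 FPKM in SLE1.2.3 mice 1, 2 and 3. In bulk RNA, fewer cells of a type and less RNA per cell cannot be told apart.

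Markers of some other cells that make the cluster's cytokines were low in Control libraries and differed among the SLE1.2.3 mice. The mast cell and basophil list (9 genes, 4 tested, 0 called) summed to 0.891 to 2.15 FPKM in Control libraries, and to 6.76, 4.11 and 38.7 FPKM in SLE1.2.3 mice 1, 2 and 3. Its member Kit was at 0.867 to 1.67 FPKM in Control libraries and at 1.67, 2.75 and 3.40 FPKM in SLE1.2.3 mice 1, 2 and 3. The basophil protease gene Mcpt8 had 0.852, 0.032 and 6.19 FPKM and Prss34 had 1.97, 0.053 and 17.4 FPKM in SLE1.2.3 mice 1, 2 and 3, against at most 0.034 FPKM and no reads in Control libraries. Il13 had the same order among the SLE1.2.3 mice as Mcpt8, Prss34 and the protease gene Cpa3, with mouse 3 highest and mouse 2 lowest, and Csf2 did not. Of the rest of the list, Fcer1a, Ms4a2 and Cma1 had this order too, while Kit and Gata2 had mouse 1 lowest. The share of all genes with this order was not worked out, and a link between Il13 and these genes was not tested. In SLE1.2.3 mouse 2 Il13 was at 11.3 FPKM. Fcer1a, the gene for a chain of the IgE receptor, was at 0.845 FPKM in that mouse against at most 0.101 FPKM in Control mice, and the mast cell protease gene Mcpt4 was at 0 in all 6 libraries. The list of group 2 innate lymphoid cell markers (5 genes, 0 tested) summed to 0.444 to 0.855 FPKM in Control and 1.34 to 2.55 FPKM in SLE1.2.3 libraries. Its member Arg1 went the other way, at 0.226 to 0.553 FPKM in Control and 0.073 to 0.188 FPKM in SLE1.2.3 libraries. The eosinophil list (4 genes, 1 tested, 0 called, with Epx at 0 in all libraries) summed to 1.12 to 1.45 and 1.96 to 2.31 FPKM. Its tested member, Ccr3, overlapped between the groups. The untested members Prg2 and Siglecf did not overlap, with SLE1.2.3 higher. Prg2 was at most 0.021 FPKM in Control libraries and at 0.186, 0.135 and 1.38 FPKM in SLE1.2.3 mice 1, 2 and 3. Siglecf was at 0.021 to 0.032 FPKM in Control libraries and at 0.103, 0.151 and 0.052 FPKM in SLE1.2.3 mice 1, 2 and 3.

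The γδ and NKT cell list (6 genes, 5 called higher) summed to 2.03 to 2.49 FPKM in Control libraries and to 33.9, 176 and 378 FPKM in SLE1.2.3 mice 1, 2 and 3. Its 6 genes each had a Control mean under 1 FPKM, so all of them entered the test through their SLE1.2.3 level. The CD8 T and NK cell list (6 genes, 3 tested, 1 called higher) summed to 10.8 to 12 FPKM and to 27.8, 80.8 and 143 FPKM. The B and plasma cell list (6 genes, 3 tested, 3 called higher) summed to 2.5 to 4.25 FPKM and to 62.4, 92.4 and 161 FPKM. Its called genes Jchain and Cd79b also had Control means under 1 FPKM and entered the test through their SLE1.2.3 level. Of all tested genes 9.65% were called higher and 5.58% lower. The myeloid list (6 genes, 3 tested, 1 called lower) summed to 8.29 to 9.65 FPKM and to 12.1, 5.10 and 3.11 FPKM. SLE1.2.3 mouse 1 had the least of the first 3 of these lists within its group, though more of each than any Control library. Il13 stood at 18.5 FPKM in that mouse. In a fit of the Control mice against SLE1.2.3 mouse 1 alone, the difference of Il13 was 3.33 and that of Csf2 was 1.88 on the log2(FPKM + 1) scale. That fit holds 1 SLE1.2.3 library and takes its spread from the Control libraries, so only the differences are given. The part of these cells in the Il13 and Csf2 differences was not tested.

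**Figure D2:**
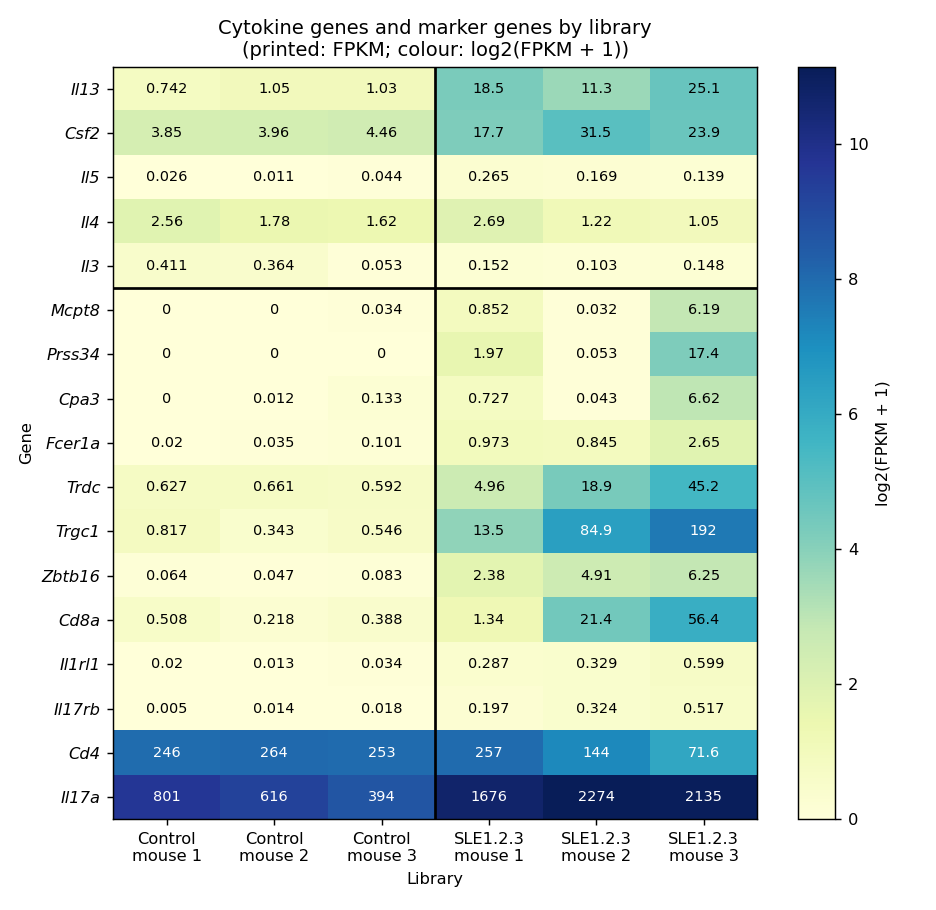
Level of 5 cytokine genes (upper rows) and of marker genes (lower rows) in each library, printed in FPKM and coloured by log2(FPKM + 1). Il13 is high in all 3 SLE1.2.3 libraries, Mcpt8 and Prss34 are near 0 in SLE1.2.3 mouse 2, and Trdc and Cd8a are at 4.96 and 1.34 FPKM in SLE1.2.3 mouse 1 and at 45.2 and 56.4 FPKM in mouse 3.

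Genes around the cluster moved in both directions. Within 0.5 Mb of the 6 genes the table holds 45 other features, of which 13 were tested, 1 was called higher and 3 lower, or 30.8% called against 15.2% of all tested genes. Irf1, an interferon-induced transcription factor gene between Il5 and Csf2, averaged 11.2 ± 1.76 FPKM (SD, n = 3) among Control mice against 55.0 ± 22.7 FPKM (SD, n = 3) among SLE1.2.3 mice, and rose by 2.11 on the log2 scale (limma adjusted p = 0.016). Gm17334 lies within Irf1 and did not pass (0.98; adjusted p = 0.063), and reads of the pair may be shared. Kif3a, a kinesin gene next to Il4, fell by 0.50, and on the far side of Il3, Fnip1, which encodes a folliculin-binding protein, fell by 0.68 and Rapgef6, an exchange factor gene, by 0.58 (adjusted p = 0.037, 0.017 and 0.0083). The other 8 tested protein-coding neighbours did not pass: Hspa4, Zcchc10, Aff4, Uqcrq, Sept8, Slc22a5, P4ha2 and Cdc42se2 had differences from -1.02 (P4ha2) to 0.55 (Cdc42se2).

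Leaving out 1 mouse ended the neighbours' calls more readily than those of Il13 and Csf2. Il13 and Csf2 passed without any single mouse, with limma adjusted p-values of 0.00076 to 0.027 for Il13 and 0.00010 to 0.030 for Csf2. Without SLE1.2.3 mouse 2 none of the 4 neighbours passed, Rapgef6 being closest (adjusted p = 0.051). Irf1 and Fnip1 also missed without each of the Control mice (adjusted p up to 0.072 and 0.073), and Kif3a without Control mouse 1 or 2 or SLE1.2.3 mouse 3 (up to 0.12). Without SLE1.2.3 mouse 1, 9 neighbours passed. Calls over all tested genes moved too, from 1733 to 327, 261 and 288 without Control mice 1, 2 and 3. They numbered 3701, 240 and 1290 without SLE1.2.3 mice 1, 2 and 3, so the loss of calls was not particular to the neighbours.

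**Figure D3:**
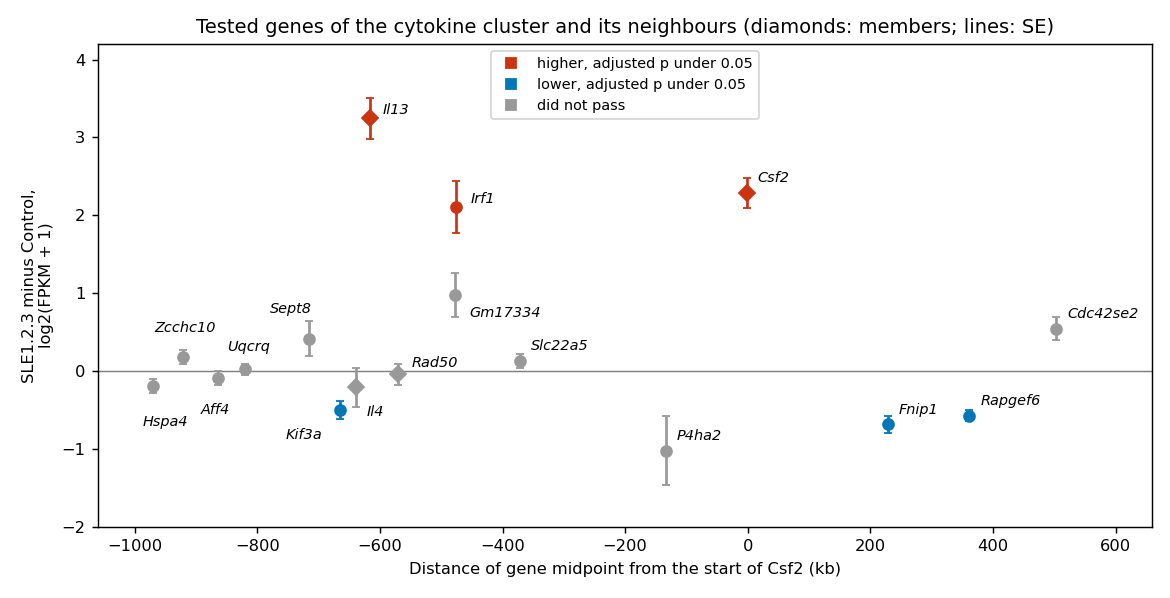
Difference between SLE1.2.3 and Control cells on the log2(FPKM + 1) scale (vertical axis, lines for SE) for tested genes of the cluster (diamonds) and their neighbours (circles), by distance of the gene midpoint from the start of Csf2 in kb (horizontal axis). Il13, Irf1 and Csf2 stand above 2, and Il4 and Rad50, on either side of Il13, lie near 0.

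Of 9 listed receptor chains for these cytokines 4 were tested and 0 passed with limma, and Il3ra alone had an unadjusted p under 0.05 (0.039). Il4ra, the chain shared by the IL-4 and IL-13 receptors, had a mean level of 54.4 FPKM in Control and of 54.6 FPKM in SLE1.2.3 cells, and Il2rg, the common γ chain gene, 111 and 112 FPKM. Il3ra and Csf2ra, the specific chains for IL-3 and GM-CSF, had differences of 0.17 and 0.11 on the log2(FPKM + 1) scale. Csf2rb, the signalling chain shared by GM-CSF, IL-3 and IL-5, was below the tested level at 0.177 to 0.288 FPKM in Control and 0.292 to 0.774 FPKM in SLE1.2.3 libraries. Its close copy Csf2rb2 was at 0.108 to 0.163 FPKM in Control and 0.373 to 1.07 FPKM in SLE1.2.3 libraries. The groups did not overlap in either gene, though in Csf2rb they parted only at 0.288 against 0.292 FPKM. Neither was tested, and reads of the pair could be split between them. The share of features below the tested level whose groups did not overlap was not worked out. Il5ra was at most 0.027 FPKM.

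Below the receptors, 12 kinase, STAT and feedback genes were tested, of which 1 rose and 2 fell, or 25% against 15.2% of all tested genes. Cish, a feedback inhibitor gene induced by STAT5, had 50.4, 45.1 and 46.7 FPKM in Control mice 1, 2 and 3, and 25.9, 19.4 and 20.5 FPKM in SLE1.2.3 mice 1, 2 and 3. The groups did not overlap, and Cish fell by 1.09 on the log2 scale (limma adjusted p = 0.0065), a call that held without any single mouse. Socs2, another such inhibitor gene, fell by 2.43 and the kinase gene Tyk2 rose by 0.39 (adjusted p = 0.026 and 0.042). Neither passed without any 1 of the Control mice or without SLE1.2.3 mouse 2, and Tyk2 also not without SLE1.2.3 mouse 3 (adjusted p up to 0.11 for Socs2 and 0.14 for Tyk2). Stat6, which carries the IL-4 and IL-13 signal, and Stat5a and Stat5b, which carry the GM-CSF and IL-3 signal, had differences of -0.26, 0.08 and -0.19 and did not pass.

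Of 29 tested transcription factor genes with textbook links to the cluster, Irf1 among them, 6 rose and 1 fell. These made up 24.1%, against 15.2% of all tested genes. The median difference of the list was 0.09 against 0.01 over all tested genes. Gata3, the master factor gene of type 2 cells, had 1.238, 2.17 and 2.63 FPKM in Control mice 1, 2 and 3, and 2.56, 4.56 and 4.87 FPKM in SLE1.2.3 mice 1, 2 and 3. SLE1.2.3 mouse 1 lay just below Control mouse 3, and the difference of 0.72 did not pass (limma adjusted p = 0.099). Maf, a factor for Il4 transcription, had 47.9, 41.1 and 39.1 FPKM in Control mice 1, 2 and 3, and 74.3, 32.2 and 23.4 FPKM in SLE1.2.3 mice 1, 2 and 3 (adjusted p = 0.82). Within each group the mice had the same order in Maf as in Il4, with mouse 1 highest and mouse 3 lowest. Il24 and Il2 had this order in both groups too, and a link between Maf and Il4 was not tested. Bhlhe40, a factor linked to GM-CSF production, had means of 191 and 201 FPKM (adjusted p = 0.88).

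Further factors that passed belong to several programmes. Rora, a nuclear receptor gene linked to the Th17 state, rose by 1.23 on the log2 scale and Batf, an AP-1 family gene of the same state, by 0.92, and both passed without any single mouse. Prdm1, which encodes Blimp-1, rose by 2.99 and Tbx21, which encodes T-bet, by 2.86, both from a Control mean under 1 FPKM. Neither passed without any 1 of the Control mice or without SLE1.2.3 mouse 2 (limma adjusted p up to 0.058 and 0.095). Ets1, which is known to act on the Csf2 promoter with AP-1, fell by 0.48, a call that was lost without Control mouse 2 or 3 or SLE1.2.3 mouse 2 or 3 (up to 0.11). The NFAT genes Nfatc1, Nfatc2 and Nfatc3 and the NF-κB genes Rel, Rela and Nfkb1 had differences from -0.19 (Nfatc1) to 0.31 (Nfatc2) and did not pass.

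Of 11 tested receptor genes for the medium's signals and for T cell growth factors, 3 rose and 0 fell, with a median difference of 0.33. The 3 made up 27.3% of the list's tested genes, against 15.2% called of all tested genes. Il23r, the receptor gene for IL-23, had 16.7, 17.9 and 17.7 FPKM in Control mice 1, 2 and 3, and 34.8, 42.4 and 37.8 FPKM in SLE1.2.3 mice 1, 2 and 3. Its groups did not overlap, and Il23r rose by 1.09 (limma adjusted p = 0.0026), a call that held without any single mouse. Among the SLE1.2.3 mice, mouse 2 was highest and mouse 1 lowest, as for Csf2, Tigit and Zbtb32, and a link was not tested. Il1r1, the receptor gene for IL-1β, had 2.35, 2.83 and 2.54 FPKM in Control mice 1, 2 and 3, and 10.3, 36.4 and 48.7 FPKM in SLE1.2.3 mice 1, 2 and 3. It rose by 2.95 (adjusted p = 0.020) and Tgfbr2, a TGF-β receptor gene, by 0.79 (adjusted p = 0.029). Neither passed without any 1 of the Control mice or without SLE1.2.3 mouse 2 (up to 0.089 and 0.12). Of the list's 11 tested genes 8 had a difference above 0. Il6ra, the IL-6 receptor gene, Cd28 and Il7r had differences of -0.96, -0.67 and -0.03 and did not pass (limma adjusted p = 0.083, 0.20 and 0.93). In Il6ra the groups did not overlap, with SLE1.2.3 lower, as in 17.7% of all tested genes.

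Of 13 listed genes outside the cluster that type 2 helper cells express 7 were tested, of which 1 rose and 1 fell. These made up 28.6% of the 7, against 15.2% called of all tested genes. Il10, an anti-inflammatory cytokine gene, rose by 1.72 from a Control mean under 1 FPKM (limma adjusted p = 0.0064, and called without any single mouse). Il24 had 13.5, 9.36 and 5.27 FPKM in Control mice 1, 2 and 3, and 3.53, 0.292 and 0.058 FPKM in SLE1.2.3 mice 1, 2 and 3, and fell by 2.42 (adjusted p = 0.044). The Il24 call was lost without any 1 mouse other than SLE1.2.3 mouse 1 (up to 0.15). The chemokine receptor genes Ccr4 and Ccr8 had differences of -1.19 and -0.60 and did not pass (limma adjusted p = 0.056 and 0.055). Their groups did not overlap, with SLE1.2.3 lower, as in 17.7% of all tested genes. Crlf2, a chain of the TSLP receptor, had a difference of 0.40 and did not pass (adjusted p = 0.058). Its groups did not overlap either, with SLE1.2.3 higher, as in 23.9% of all tested genes. Il9 was below the tested level, at 1.00, 0.164 and 1.00 FPKM in Control mice 1, 2 and 3 and at 0.112 FPKM and no reads in SLE1.2.3 mouse 1 and in mice 2 and 3. Also below that level, with all SLE1.2.3 values above all Control values, were Il1rl1, the IL-33 receptor gene (0.013 to 0.034 FPKM in Control and 0.287 to 0.599 FPKM in SLE1.2.3 libraries), Il17rb, the IL-25 receptor gene (0.005 to 0.018 and 0.197 to 0.517 FPKM), and Areg, the amphiregulin gene (0.166 to 0.360 and 0.542 to 0.800 FPKM). The share of features below that level with such values was not worked out.

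Of 11 tested effector cytokine genes outside the cluster 3 rose and 2 fell, or 45.5% against 15.2% of all tested genes. Il17a, the signature cytokine gene of Th17 cells, rose from 604 ± 204 to 2029 ± 313 FPKM (SD, n = 3 each; limma adjusted p = 0.014), Il22 by 6.10 and Ifng by 5.79 on the log2 scale (adjusted p = 0.0095 and 0.019). Il2, the T cell growth factor gene, fell from 4.72 ± 1.31 to 1.65 ± 0.759 FPKM and Lta, the lymphotoxin α gene, from 69.1 ± 28.5 to 20.8 ± 9.94 FPKM (adjusted p = 0.036 and 0.034). The Il22 call was lost without Control mouse 2 (0.055), that of Il17a without Control mouse 2 or SLE1.2.3 mouse 2 (up to 0.072), and that of Ifng without any 1 of the Control mice or SLE1.2.3 mouse 2 (up to 0.085). The Il2 and Lta calls held without SLE1.2.3 mouse 1 only (otherwise up to 0.13 each). Among 7 partners of the RAD50 protein, all tested, 0 rose and 1 fell, or 14.3% against 15.2% of all tested genes. The 1 was Mre11a, which encodes the nuclease of the complex and fell from 12.6 ± 0.440 to 9.89 ± 0.101 FPKM (adjusted p = 0.019). Its call was lost without any 1 of the Control mice or SLE1.2.3 mouse 2 (up to 0.10). Nbn, the gene of the complex's remaining subunit, had a difference of -0.25 and did not pass (adjusted p = 0.070).

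**Figure D4:**
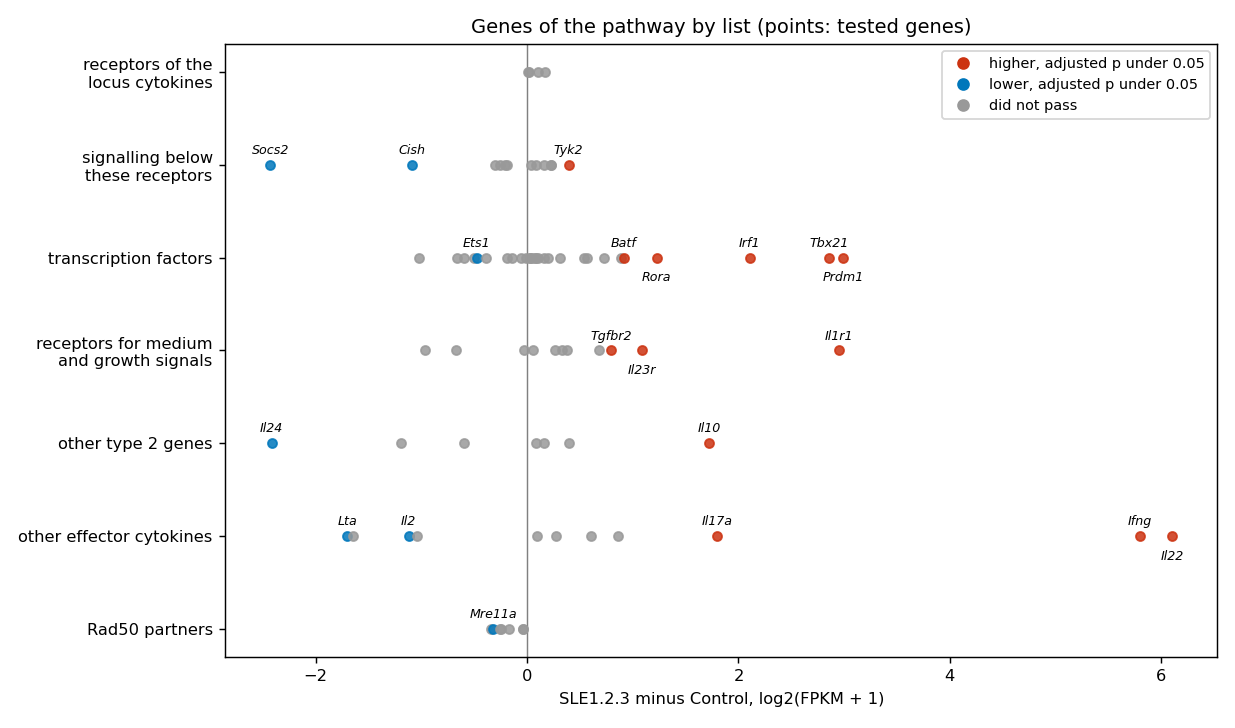
Difference between SLE1.2.3 and Control cells on the log2(FPKM + 1) scale (horizontal axis) for tested genes of 7 lists around the cluster (rows), coloured by whether it passed. The 4 receptor genes lie between 0 and 0.2 and did not pass, and the genes furthest from 0 are Il22 and Ifng.

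The 5 genes whose pattern over the 6 libraries was most like that of Csf2 were B3galt2, Fbxo27, Tigit, Pxdc1 and Zbtb32, with root-mean-square differences of 0.084 to 0.19 in centred log2(FPKM + 1). Tigit encodes an inhibitory receptor of T cells and had 4.76, 6.07 and 4.43 FPKM in Control mice 1, 2 and 3, and 22.1, 33.3 and 28.2 FPKM in SLE1.2.3 mice 1, 2 and 3. Zbtb32, whose product is known as a repressor of GATA3, had 5.28, 3.92 and 3.60 FPKM, and 16.98, 28.7 and 24.2 FPKM. All 5 had mouse 1 as the lowest of the SLE1.2.3 mice, as did Csf2, an order that follows from choosing them by likeness to Csf2. For Il13 the 5 nearest genes, taken by the same measure after its values were known, were further off, at 0.38 to 0.57, and were Ccr1, Ccl5, Ifitm1, Klrc1 and Prdm1. In these 5 the SLE1.2.3 mice stood in the order 1, 2, 3 from lowest to highest, whereas Il13 was lowest in mouse 2.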

How the data were processed

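The deposited table holds FPKM values per feature, computed by the authors, for 6 libraries. Per the submitters' processing notes, which give no order or roles, the tools were FastQC 0.11.9, cutadapt 2.10, STAR 2.7.3a, featureCounts 2.0.0 and DESeq2 1.24.0, with mm10. Not given in the sources used here are the annotation release and the strand setting. The FPKM steps gave whole reads within 0.15 for 100% of values under 30 reads, and so each library's depth. No 2 libraries held the same values. Genes with a mean FPKM of 1 or more over the 6 libraries were fitted with limma 3.58.1 (R 4.3.3) on log2(FPKM + 1), with a mean-variance trend, 3 mice against 3, two-sided, and Benjamini-Hochberg adjustment over 11378 genes with a threshold of 0.05. The code was tested on simulated data. 24 symbols that had become dates were restored from their identifiers. Intervals for read rates are exact and cover counting error only. Nothing but the mouse names says that libraries were prepared separately, so p-values measure the spread between these libraries. Alternatives were a pseudocount of 0.1 FPKM, no filter, a filter at 5 FPKM, median-ratio and quantile scaling, a block on mouse number, leaving out mice, and limma voom on the recovered reads. Voom without a filter was added after seeing the data. The genes and lists were chosen with earlier results of these data known. Named are all 6 genes, each tested protein-coding neighbour, the listed genes that passed and some that did not, and the 5 genes most like Csf2. 1 listed gene is counted with its lists but is not reported here.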

Additional observations from a re-analysis of the deposited data

How the results depend on the processing

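Csf2 and Il13 passed under every alternative that kept more than 1 mouse per group, Csf2 at 2.09 to 2.53 and Il13 at 3.00 to 4.24 on the log2 scale. Without each mouse in turn Csf2 ranged from 2.09 to 2.48, Il13 from 3.00 to 3.54, Il4 from -0.47 to -0.05 and Rad50 from -0.19 to 0.078, the last without SLE1.2.3 mouse 1. Il4 was 0.32 without both SLE1.2.3 mice 2 and 3, and neither Il4 nor Rad50 passed in any fit. With voom on all reads Il3 was at -0.86 and Il5 at 2.61. The count of called genes, 1733, was 798 without the filter, 1129 with the filter at 5 FPKM, 665 without both SLE1.2.3 mice 2 and 3, and 240 (without SLE1.2.3 mouse 2) to 3701 (without SLE1.2.3 mouse 1) over single mice, with 327, 261 and 288 without Control mice 1, 2 and 3. Quantile scaling gave 921 higher and 881 lower calls against 1098 and 635. The count of called list genes, 24, was 14 without the filter, 15 without both SLE1.2.3 mice 2 and 3, and 7 to 57 without single mice. The count of called neighbours, 4, was 0 to 9 without single mice. Il24 missed with the pseudocount of 0.1 FPKM and with voom, as did Ifng and Tbx21 with voom, and Ets1, Mre11a and Tyk2 with the block. Causes of these shifts were not tested. Batf, Cish, Il10, Il23r and Rora stayed called whichever single mouse was left out.

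Same-numbered mice are different animals, and their deviations correlated at -0.0040, 0.10 and 0.091 for mice 1, 2 and 3, so the numbers were not taken as a pairing. Control mouse 1 correlated better with SLE1.2.3 mouse 3 than with its own number, and Control mouse 2 with SLE1.2.3 mouse 1. With the mouse number as a block 940 genes were called, Csf2 and Il13 passed (limma adjusted p = 0.015 each) and Il4 and Rad50 did not (0.32 and 0.83). Il3 and Il5 had at most 13 and 34 reads in a library, which limits the precision of their values.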
